A study of Mus musculus with 199 samples.

Results

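Cholesterol and fatty acids are built by enzymes whose genes are largely switched on together, and 34 genes of these routes were followed among the 31581 mouse genes measured. The list is of named genes grouped by function, drawn up with earlier results of these data known: 7 enzymes of the mevalonate pathway, 11 enzymes from squalene to cholesterol, 5 genes that regulate or move sterols, 3 that supply acetyl-CoA and NADPH, 4 of fatty acid synthesis and elongation, and 4 desaturases. The study measured small-cell lung cancer cells of the mouse line KP1, genotype Rb1-/-Trp53-/-, in 10-cell captures taken by laser from 8 µm frozen sections and amplified by poly(A) PCR. KP1 cells were sampled as spheroids in culture (28 libraries), as liver colonies in nude mice (33) and as liver colonies in F1 mice (31), with pool-and-split controls of each kind (20, 35 and 24). The RPC line, labelled as explanted pre-small cell lung cancer cells of genotype Rb1-/-Trp53-/-p130-/+Crebbp-/-, gave 24 spheroid libraries of 10 cells. Bulk spheroid libraries, 1 per line and made with another kit, cover KP1, KP2 (which adds Ptch1+/lacz), KP3 (which adds Axin2+/lacz) and KP5 (which adds BAT-GAL). All groups share the loss of Rb1 and Trp53, and every liver colony comes from the single line KP1. The labels give no age or strain beyond the words nude and F1, and no treatment, animal or culture, so p-values here measure the spread between captures, which may come from few animals.

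Cholesterol synthesis starts from acetyl-CoA, passes through mevalonate and isoprenoid units to squalene, and ends after ring closure with a series of demethylations and reductions. Fatty acid synthesis draws on the same acetyl-CoA: ATP citrate lyase (Acly) makes it in the cytosol, acetyl-CoA carboxylase (Acaca) turns it into malonyl-CoA, fatty acid synthase (Fasn) joins the units, and desaturases such as Scd2 and Fads1 insert double bonds. When sterols are scarce, the protein Scap carries the SREBP transcription factors (products of Srebf1 and Srebf2) from the endoplasmic reticulum to be cleaved and to switch on both routes, while Insig proteins hold them back. Hepatocytes, which surround a liver colony, are themselves strong makers of cholesterol and fatty acids.

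The 250 bases before the start of transcription were searched in the RefSeq promoter windows of GRCm38.p6, which held 27 of the 34 genes. Hmgcs1, Cyp51, Nsdhl and Fasn are shown because they were called between spheroids and liver colonies, Fasn in the opposite direction to the others. Each line is 5′ to 3′ on the gene's own strand, and the capitals mark TCACNCCAC (a sterol regulatory element), CCAAT (the CCAAT box) and GGGCGG (the GC box), read on either strand. Stretches that an annotated exon of GENCODE M21 covers are left out, so Cyp51 is shown over 201 bases and Nsdhl over 109.
Hmgcs1: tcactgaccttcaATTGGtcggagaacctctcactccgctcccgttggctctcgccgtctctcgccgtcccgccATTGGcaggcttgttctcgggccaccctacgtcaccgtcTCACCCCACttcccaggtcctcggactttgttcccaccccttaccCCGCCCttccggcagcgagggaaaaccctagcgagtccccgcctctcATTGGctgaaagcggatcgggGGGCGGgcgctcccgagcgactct
Cyp51: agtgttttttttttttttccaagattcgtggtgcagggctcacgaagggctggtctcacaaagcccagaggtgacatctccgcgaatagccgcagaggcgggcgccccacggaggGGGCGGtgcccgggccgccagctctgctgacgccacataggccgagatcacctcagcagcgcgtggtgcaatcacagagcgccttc
Nsdhl: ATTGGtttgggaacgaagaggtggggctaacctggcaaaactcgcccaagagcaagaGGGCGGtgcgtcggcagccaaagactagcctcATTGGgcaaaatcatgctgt
Fasn: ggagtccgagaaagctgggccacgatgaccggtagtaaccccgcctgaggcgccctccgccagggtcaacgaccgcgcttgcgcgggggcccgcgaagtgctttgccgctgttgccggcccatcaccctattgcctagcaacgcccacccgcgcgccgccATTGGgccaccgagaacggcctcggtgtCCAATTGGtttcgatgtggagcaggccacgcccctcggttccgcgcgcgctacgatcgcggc
These stretches lie at chr13:119690101-119690350 (plus strand), chr5:4104747-4104947 (minus), chrX:72918412-72918520 (plus) and chr11:120824548-120824797 (minus). In Fasn the run CCAATTGG holds the CCAAT box on both strands, overlapping.

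The element TCACNCCAC was present in 1 of the 27 genes, Hmgcs1, at positions -137 to -129 from the RefSeq start, against 1.22% of all 27025 genes with a window. The CCAAT box was present in 21 of the 27 genes (77.8%), against 37.5% of all genes. The GC box was present in 22 (81.5%), against 35.4% of all. The palindromic E-box CACGTG was present in 6 (22.2%), against 6.86%. Genes with several windows counted once, as present if any window held the motif. These are matches of letters and not binding sites, and the absence of a match says only that these letters are not in the window.

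The 10-cell and pool libraries held between 718208 and 7557773 gene counts, and the bulk libraries between 17266200 and 42447973. Values are given as CPM, a gene's count scaled to the library's total of gene counts. Spike-in transcripts made up over 10% of counts in 1 nude and 1 F1 10-cell library, 3 nude pool libraries and 17 of the 24 F1 pool libraries. The KP1 spheroid 10-cell libraries fell into 9 with at least 0.1% spike-in counts and 19 with less. The summed CPM of 14 hepatocyte genes ran from 0 to 63.9 in spheroid 10-cell libraries (median 0.881), from 33.4 to 5896 in nude colonies (median 1129) and from 0 to 2632 in F1 colonies (median 177.5). Alb, which encodes albumin, had counts in 32 of 33 nude, 24 of 31 F1 and 0 of 28 spheroid libraries. The summed CPM of 8 neuroendocrine genes, which mark small-cell lung cancer, ran from 610 to 2465 in spheroids, 36.2 to 2376 in nude colonies, 490 to 4762 in F1 colonies and 539 to 1644 in RPC, with all 8 genes detected in each group. The hepatocyte sum was above the neuroendocrine sum in 17 nude and 5 F1 libraries. The erythrocyte sum of 5 genes had medians of 0 in spheroids, 551 in nude and 1622 in F1 colonies. Macrophage sums of 9 genes had medians of 4.52, 34.1 and 46.7, and endothelial and stellate sums of 9 genes medians of 0.236, 30.8 and 7.22. In spheroids 8 of the 9 macrophage genes had no counts, so that sum rests on the remaining gene. Its mean levels were 14.7 CPM in spheroids, 15.4 in nude and 20.8 in F1 colonies. Of the 3 adipocyte genes, Adipoq was at 0 in all 10-cell and pool libraries. Crebbp, which the RPC label gives as deleted, had counts in all 24 RPC libraries (0.132 to 138 CPM) and all 28 KP1 spheroid libraries (5.28 to 131). The labels do not say which exons are missing, so this does not check the genotype. Rb1 and Trp53, deleted in every group by the labels, had counts in 28 and 24 of the 28 KP1 spheroid libraries (2.50 to 85.1 and 0 to 66.6 CPM), and no library without the deletions was there to compare.

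Between KP1 spheroids and colonies in nude mouse liver, the question is what changes in the tumour cells in a living host. The sterol regulator Srebf2, enzymes of cholesterol synthesis (2 of the mevalonate pathway and 4 later ones) and the desaturases Scd2 and Fads1 were lower in the liver, and the fatty acid genes Acaca and Fasn were higher. Of the 34 genes, 27 passed the filter on low counts; 9 were called lower and 2 higher (edgeR quasi-likelihood test, Benjamini-Hochberg adjusted p under 0.05). Over all 7834 genes tested, 16.3% were called lower and 17.7% higher. Median log2 fold changes were -0.71 for the 27 genes and -0.04 for all genes tested, and 22 of the 27 were negative, against 51.0% of all genes. In a 10-cell capture, fewer tumour cells and less RNA per cell cannot be told apart.

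Among the mevalonate enzymes, 2 of 6 tested fell; gene coordinates are those of the deposited table on GRCm38. Fdps (chr3:89093588-89101959), which makes farnesyl diphosphate, ranged from 180 to 876 CPM in spheroids (median 321) and from 0 to 660 in nude colonies (median 72.8). In 28 of the 33 nude libraries its level was below the lowest spheroid, and the upper nude libraries overlapped the spheroids. The log2 fold change of Fdps was -2.02 (SE 0.45, adjusted p = 0.000237). Hmgcs1 (chr13:119690379-119708260), the synthase that forms HMG-CoA, ranged from 3.56 to 217 CPM in spheroids (median 27.1) and from 0 to 44.9 in nude colonies (median 2.29). It had counts in every spheroid library and in 26 of 33 nude libraries, and 19 of the 33 lay below the lowest spheroid. The log2 fold change of Hmgcs1 was -2.60 (SE 0.56, adjusted p = 0.000154). Acat2, Mvk, Pmvk and Mvd were not called, with log2 fold changes between -0.99 and -0.13.

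Among the enzymes from squalene onward, 4 of 8 tested fell. Sqle (chr15:59315077-59331192), squalene epoxidase, ranged from 76.4 to 612 CPM in spheroids (median 235) and from 0 to 503 in nude colonies (median 66.1), with 17 of 33 nude libraries below the lowest spheroid. Its log2 fold change was -1.68 (SE 0.39, adjusted p = 0.000374). Fdft1, Lss, Msmo1 and Ebp were not called, with log2 fold changes between -0.87 and -0.48. The later enzymes were sparse in single captures. Nsdhl, which removes a carboxyl group during demethylation at carbon 4 of the sterol ring, had counts in 24 of 28 spheroid libraries (0 to 186 CPM, median 8.21) and in 11 of 33 nude libraries (0 to 30.0, median 0). The fitted log2 fold change of Nsdhl was -3.17 (SE 0.79, adjusted p = 0.00104). Dhcr7, the final reductase, had counts in 25 of 28 spheroid libraries (median 5.00 CPM, highest 31.4) and 17 of 33 nude libraries (median 0.442, highest 31.6), with a log2 fold change of -2.24 (SE 0.65, adjusted p = 0.00476). For both genes the lowest value in each group is 0 and the ranges overlap, with fewer nude captures holding the transcript. After thinning every library to 718149 counts, Nsdhl was detected in 22 of 28 spheroid and 10 of 33 nude libraries, and Dhcr7 in 23 and 9. Cyp51, lanosterol demethylase, ranged from 1.36 to 264 CPM in spheroids (median 34.0) and from 0 to 119 in nude colonies (median 14.7), with a log2 fold change of -1.30 (SE 0.53, adjusted p = 0.0479). The Cyp51 call was the weakest of the 11: it was lost in 7 of 13 alternative analyses, with adjusted p between 0.0116 and 0.433. Cyp51 overlaps Akap9 on the genome, and the strand used in counting is not stated, so their reads cannot be told apart.

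Of the regulators, Srebf2, the SREBP gene most tied to sterol synthesis, was called lower. It ranged from 0 to 234 CPM in spheroids (median 30.2) and from 0 to 125 in nude colonies (median 2.33), the ranges overlapping. Its log2 fold change was -1.89 (SE 0.61, adjusted p = 0.0119). Scap had medians of 65.0 and 33.2 CPM and was not called (log2 fold change -0.94, adjusted p = 0.0962). Stard4, a sterol carrier, had a higher median in spheroids (26.3 CPM) but a higher mean in nude colonies (51.0 against 34.9), and was not called (log2 fold change 0.52). Srebf1 and Insig1 were too low to be tested, with medians of 1.18 and 1.87 CPM in spheroids.

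The fatty acid genes split. Fasn (chr11:120805846-120824547) ranged from 20.2 to 554 CPM in spheroids (median 218) and from 68.7 to 1815 in nude colonies (median 546), and 16 of 33 nude libraries were above the highest spheroid. Its log2 fold change was 1.39 (SE 0.23, adjusted p = 1.45e-06). Acaca ranged from 0 to 65.0 CPM in spheroids (median 16.9) and from 1.19 to 201 in nude colonies (median 46.8), with 10 of 33 nude libraries above every spheroid, and a log2 fold change of 1.25 (SE 0.39, adjusted p = 0.00916). These 2 genes encode consecutive steps, the commitment to and the assembly of palmitate. Acly, the step before them, had medians of 66.0 and 111 CPM and was not called (log2 fold change 0.48, adjusted p = 0.208). Acss2 and Me1, which supply acetyl-CoA and NADPH, and the elongases Elovl5 and Elovl6 were not called, with log2 fold changes between -0.81 and 0.19.

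Scd2 (chr19:44293676-44306864), a stearoyl-CoA desaturase that makes monounsaturated fatty acids, had the most libraries outside the spheroid range. It ranged from 278 to 1821 CPM in spheroids (median 809) and from 15.9 to 490 in nude colonies (median 137). In 30 of 33 nude libraries it was below the lowest spheroid, and the remaining few overlapped. The log2 fold change was -2.51 (SE 0.22, adjusted p = 2.46e-15). Fads1, which makes polyunsaturated fatty acids, ranged from 2.41 to 354 CPM in spheroids (median 128) and from 0 to 387 in nude colonies (median 21.0), with 5 of 33 nude libraries below every spheroid, and a log2 fold change of -1.79 (SE 0.48, adjusted p = 0.00234). Fads2, its partner enzyme, had medians of 10.7 and 8.60 CPM and was not called. Scd1, the form of stearoyl-CoA desaturase best known from liver, had counts in 9 of 33 nude and 7 of 28 spheroid libraries and was not tested. The other genes too low to test were Idi1, Tm7sf2, Hsd17b7 and Sc5d. Scd1 and Scd2 are related in sequence, as are Fads1 and Fads2, so estimated counts could be split between them.

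**Figure D1:**
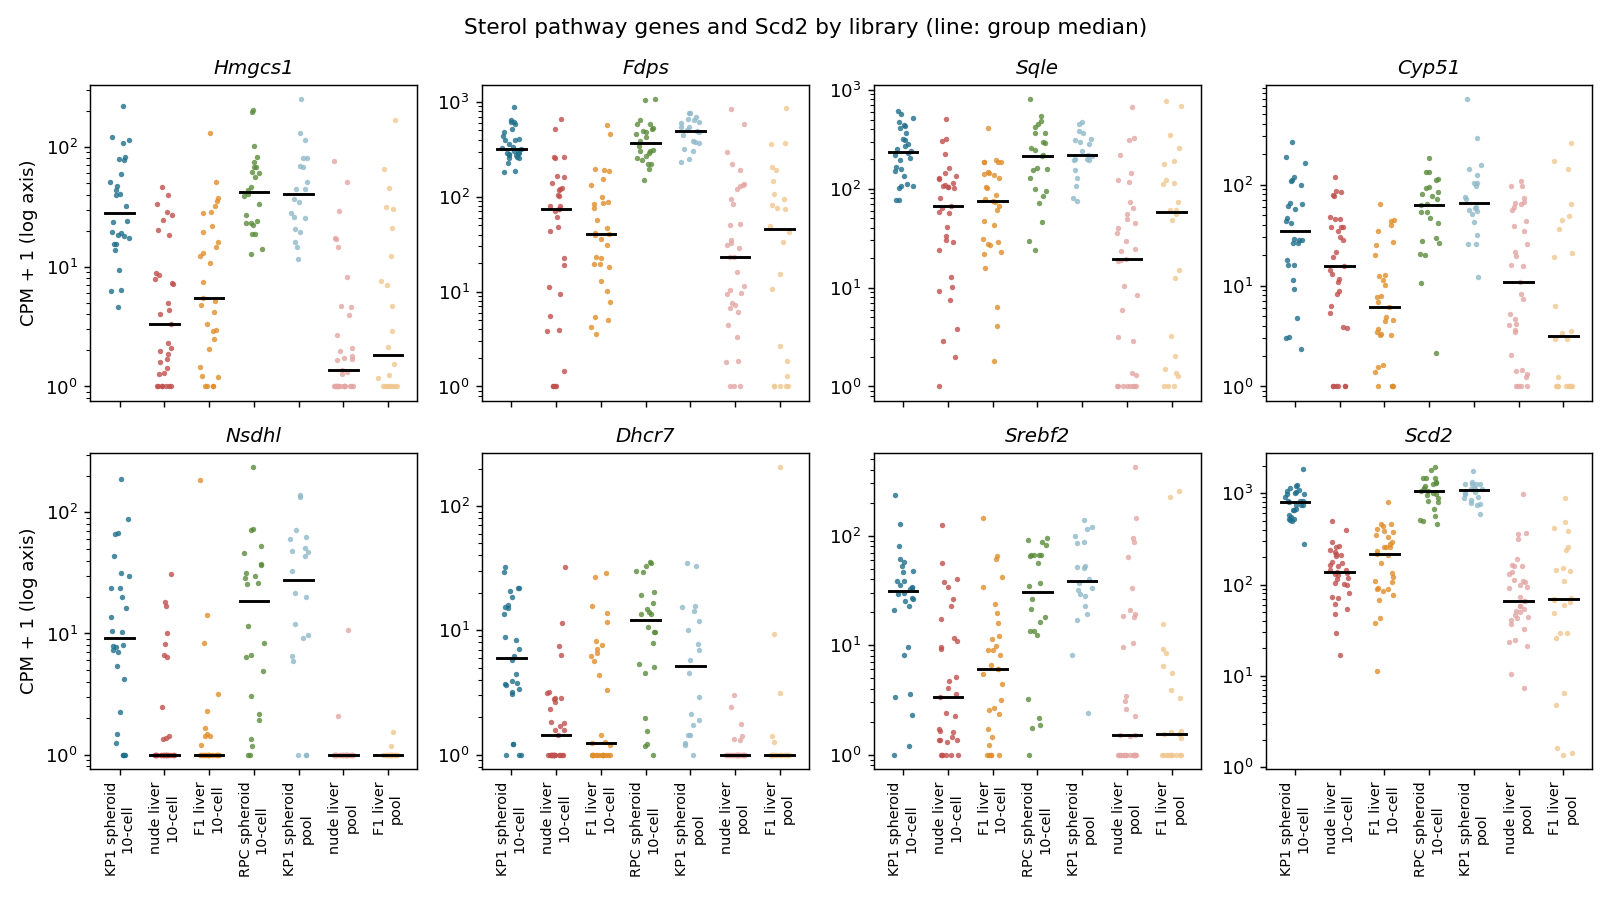
CPM plus 1 on a log axis for 8 genes, 1 point per library, in the 4 groups of 10-cell libraries and the 3 pool-and-split groups; the line is the group median. In the nude colonies 30 of 33 Scd2 points lie below the lowest spheroid, and most liver pool points of Nsdhl lie at the floor.

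Hepatocyte genes moved with this comparison: 7 of the 7 tested were called higher in nude colonies, and 5 of 7 neuroendocrine genes tested were called lower. The erythrocyte genes tested (3 of 3) and the 1 endothelial and stellate gene tested were called higher too, and their part was not tested. When a hepatocyte score was added to the model, 2 of the 27 genes tested were called, both lower: Scd2 (log2 fold change -2.79) and Elovl5 (-4.72), a fatty acid elongase not called without the score. Calls over all 7834 genes went from 2669 to 1071 in the same model. The score followed the group: the summed CPM of its 14 genes had a median of 0.881 in spheroids and 1129 in nude colonies. This model can therefore hardly tell score and group apart. The other 10 calls were lost with their direction kept, for example Fdps at -2.14 (adjusted p = 0.137), Hmgcs1 at -3.13 (0.0909) and Fasn at 1.09 (0.0727). Of these, Fads1 went from -1.79 to -0.28 (adjusted p = 0.876), and Nsdhl went from -3.17 to -2.24 (0.345). Without the 17 nude libraries whose hepatocyte sum was above the neuroendocrine sum, a choice made after seeing the data, 8 of 28 were called (1 higher, 7 lower), where 1835 of all 8441 genes were, with Scd2 at -2.67, Fdps at -1.86, Hmgcs1 at -2.88 and Fasn at 1.39. There Acaca (0.93, adjusted p = 0.158), Fads1 (-1.23, 0.074), Srebf2 (-1.95, 0.0558) and Cyp51 (-1.13, 0.183) lost their calls, and Lss gained one (-2.54, 0.0222). Within the liver groups, 15 relations between a gene's level and the hepatocyte score gave Spearman's rho between -0.23 and 0.32 and Pearson's r between -0.21 and 0.24, with a lowest permutation p, adjusted over the 15, of 0.857 and 0.793. Without the 2 libraries farthest from the median score, Pearson's r ran from -0.27 to 0.31. Against only the 9 spheroid libraries with at least 0.1% spike-in counts, 6 of 27 were called (1 higher, 5 lower), where 1847 of all 9507 genes were, and against the 19 with less, 8 of 27 (2 higher, 6 lower), where 2369 of all 8340 genes were. Dhcr7 did not pass the filter in either. Against the 9, the calls of Acaca (log2 fold change 0.95, adjusted p = 0.234), Fads1 (-1.82, 0.0626), Sqle (-1.57, 0.0505) and Cyp51 (-0.96, 0.433) were lost. Against the 19, those of Srebf2 (-1.63, 0.0647) and Cyp51 (-1.43, 0.0594) were lost.

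In F1 mouse liver the same spheroid libraries serve as the control, so the liver comparisons are not independent and are given side by side. Here 28 of the 34 genes passed the filter; 4 were called lower and 0 higher, and 7 had an unadjusted p under 0.05. Over all 7309 genes tested, 4.91% were called lower and 7.73% higher. DESeq2 called 6 lower and 0 higher, and limma-voom 15 lower and 0 higher, where in either direction they called 1417 and 1747 of all genes. Median log2 fold changes were -0.77 for the 28 genes and 0.22 for all genes tested. Markers of other cells moved with this comparison too: 4 of 4 erythrocyte genes and the 1 hepatocyte gene tested were called higher in F1 colonies, and of 7 neuroendocrine genes 4 were called lower and 1 higher. The part of the erythrocyte genes in the result was not tested.

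The 4 genes were Fdps, Sqle, Cyp51 and Scd2. Fdps ranged from 2.62 to 566 CPM in F1 colonies (median 39.4), 26 of 31 libraries lying below the lowest spheroid, with a log2 fold change of -1.89 (SE 0.37, adjusted p = 0.000158). Sqle ranged from 0.822 to 409 CPM (median 74.7), with 16 of 31 below every spheroid and a log2 fold change of -1.17 (SE 0.35, adjusted p = 0.0182). Both had counts in all 31 libraries, and about as many captures lay inside the spheroid range for Sqle as below it. Cyp51 ranged from 0 to 63.3 CPM (median 5.17), with 7 of 31 below the lowest spheroid, and a log2 fold change of -2.16 (SE 0.56, adjusted p = 0.00568). Scd2 ranged from 10.4 to 792 CPM (median 215), with 20 of 31 below the lowest spheroid, and a log2 fold change of -1.45 (SE 0.26, adjusted p = 3.76e-05). Each of these ranges overlaps that of the spheroids.

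Other sterol genes in F1 colonies had negative log2 fold changes that were not called: Hmgcs1 -1.07 (adjusted p = 0.221), Nsdhl -1.63 (0.227) and Srebf2 -1.07 (0.257). Hmgcs1 had a median of 4.43 CPM and Srebf2 of 5.08, and Nsdhl had counts in 10 of 31 libraries. For Nsdhl 1 F1 library stood at 186 CPM and the next at 13.3, and the gene was called lower with DESeq2 (log2 fold change -4.31, adjusted p = 3e-06), with limma-voom (-4.11, 1.3e-05) and with the replicate number as a block (-5.52, 0.000447). The fatty acid genes Fasn (median 199 CPM, log2 fold change 0.42, adjusted p = 0.287), Acaca (18.7 CPM, 0.93, 0.187) and Acly (76.0 CPM, 0.60, 0.202) were not called. With the hepatocyte score in the model 3 genes were called, where 687 of all 7309 genes were, against 924 without it. The call of Sqle was lost at a log2 fold change of -1.12, from -1.17 (adjusted p = 0.0823). Without the 5 F1 libraries whose hepatocyte sum exceeded the neuroendocrine sum, 4 of 27 were called, all lower, where 935 of all 7209 genes were. Against the 9 spheroid libraries with at least 0.1% spike-in counts, 2 were called, where 174 of all 8897 genes were. The calls of Sqle (log2 fold change -0.98, adjusted p = 0.41) and Cyp51 (-1.76, 0.306) were lost. Of the F1 libraries, 25 carry at least 200 CPM of the ribosomal pseudogene Rpl19-ps11 and 6 do not. Only 1 of 28 spheroid, 1 of 33 nude and 2 of 24 RPC libraries do. Among the pools 16 of 24 F1, 0 of 35 nude and 0 of 20 spheroid libraries do. This trait and the F1 group can therefore hardly be told apart. With either part of the F1 libraries alone, 4 genes were called lower and 0 higher. Sqle was lost with the 25 (log2 fold change -0.90, adjusted p = 0.0689) and Cyp51 with the 6 (-1.77, adjusted p = 0.324). Elovl6 was gained with the 25 (log2 fold change -2.10, adjusted p = 0.0432) and Acat2 with the 6 (-2.22, 0.0102). Over all genes 1083 of 7225 were called with the 25 and 358 of 10036 with the 6.

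Set directly against each other, F1 and nude colonies differed at 3 of 22 genes tested. Over all 7064 genes tested, 11.2% were called higher in F1 and 7.98% lower, against 2 higher and 1 lower here. Fasn was lower in F1 colonies, with a median of 199 CPM (65.1 to 693) against 546 (68.7 to 1815) in nude colonies, and a log2 fold change of -0.93 (SE 0.24, adjusted p = 0.00358). Scd2 was higher, with a median of 215 CPM (10.4 to 792) against 137 (15.9 to 490), and a log2 fold change of 1.11 (SE 0.30, adjusted p = 0.00451). Fads1 was higher, with a median of 54.9 CPM (0 to 884) against 21.0 (0 to 387), and a log2 fold change of 1.73 (SE 0.55, adjusted p = 0.0188). All 3 pairs of ranges overlap; 2 of the 31 F1 libraries lay below the lowest nude library for Fasn. Hmgcs1 was not called (log2 fold change 1.57, adjusted p = 0.0851), nor were Fdps, Sqle or Cyp51. Erythrocyte genes moved with this comparison, 4 of 4 tested being called higher in F1, with mean levels of the haemoglobin gene Hbb-bs of 2326 CPM in F1 and 315 in nude colonies. Of 8 hepatocyte genes tested, 1 was called lower; Alb had mean levels of 90.4 and 369 CPM. With the hepatocyte score in the model the same counts were called (2 higher, 1 lower), where calls over all 7064 genes went from 1358 to 959. Fasn was then at -0.83, Scd2 at 1.05 and Fads1 at 1.67. Without the libraries whose hepatocyte sum was above the neuroendocrine sum, 2 were called, and Fads1 was lost (log2 fold change 1.02, adjusted p = 0.393), while calls over all genes went from 1358 of 7064 to 374 of 7694. The part of erythrocyte RNA in these results was not tested. With only the 6 F1 libraries under 200 CPM of Rpl19-ps11, 1 gene was called, where 302 of all 10292 genes were, and Scd2 was at 0.01 (adjusted p = 0.99).

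RPC and KP1 spheroids were compared as lines grown alike, RPC being pre-cancerous by its label; line and genotype cannot be told apart. Acly, Acaca, Fasn and Tm7sf2 were called higher in RPC. By role these were 1 of 3 acetyl-CoA and NADPH genes, 2 of 4 of fatty acid synthesis and elongation, 1 of 10 later cholesterol enzymes and 0 of 7 mevalonate enzymes tested. Of 32 genes tested, 4 were called higher and 0 lower, with 7 at an unadjusted p under 0.05; DESeq2 called 6 higher and 0 lower, limma-voom 8 and 0, where in either direction they called 2477 and 3096 of all genes. Over all 8600 genes tested, 10.3% were called higher and 11.6% lower, so the share called higher is near that of all genes. Neuroendocrine genes moved with this comparison, 5 of 7 tested being called lower in RPC and 1 higher; their part in the result was not tested. Median log2 fold changes were 0.16 for the 32 genes and 0.01 for all tested.

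Acly, Acaca and Fasn encode successive enzymes from citrate to palmitate. Acly ranged from 65.1 to 344 CPM (median 178) in RPC and from 2.17 to 296 (median 66.0) in KP1, with a log2 fold change of 1.14 (SE 0.28, adjusted p = 0.00153). Acaca ranged from 8.53 to 521 CPM (median 71.2) in RPC and from 0 to 65.0 (median 16.9) in KP1, and 12 of 24 RPC libraries were above every KP1 library. Its log2 fold change was 2.07 (SE 0.40, adjusted p = 5.17e-05). Fasn ranged from 208 to 1520.1 CPM (median 587) in RPC and from 20.2 to 554 (median 218) in KP1, with 13 of 24 RPC libraries above every KP1 library, and a log2 fold change of 1.37 (SE 0.24, adjusted p = 9.83e-06). The ranges of all 3 genes overlap. The other called gene was Tm7sf2, a sterol C14 reductase, with a median of 15.1 CPM in RPC (0 to 69.0) and 1.32 in KP1 (0 to 29.8), and a log2 fold change of 2.15 (SE 0.69, adjusted p = 0.0176). Tm7sf2 overlaps Vps51 and Acaca overlaps Gm11437 on the genome, and without stated strand their reads cannot be told apart.

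Scd2 had medians of 1053 CPM in RPC and 809 in KP1 spheroids (log2 fold change 0.21, not called). Hmgcs1 had medians of 41.1 and 27.1 CPM, Fdps 367 and 321, Sqle 214 and 235, and Cyp51 62.4 and 34.0, none of them called. Scd1 had counts in 22 of 24 RPC and 7 of 28 KP1 libraries, with medians of 4.16 and 0 CPM; it did not pass the filter. Against the KP1 libraries with at least 0.1% spike-in counts, Acly (log2 fold change 0.72, adjusted p = 0.172) and Tm7sf2 (1.51, 0.28) were no longer called. Acss2 gained a call there (3.92, adjusted p = 0.00424). Fasn and Acaca were called in each of the 10 alternative analyses.

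**Figure D2:**
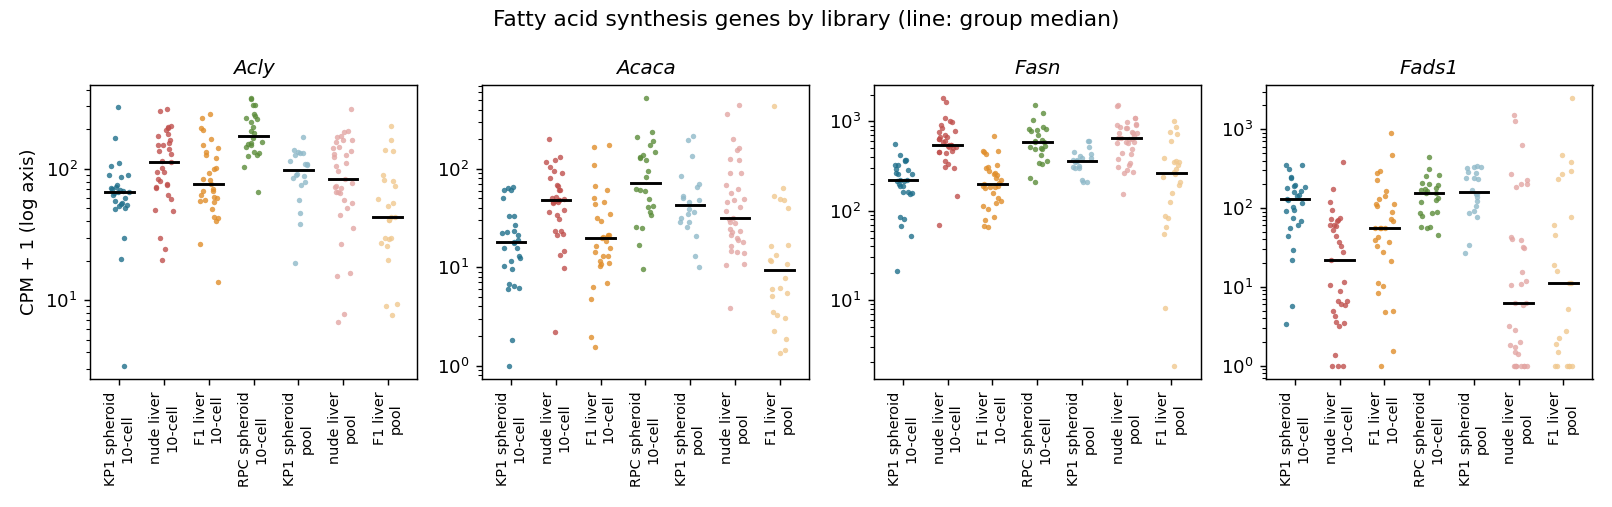
CPM plus 1 on a log axis for Acly, Acaca, Fasn and Fads1, 1 point per library, in the same groups; the line is the group median. Fasn has medians of 546 CPM in nude colonies and 587 in RPC spheroids, against 218 in KP1 spheroids and 199 in F1 colonies.

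The pool-and-split controls are, by their label, splits of pooled material, and the labels do not say how many pools were made. Their p-values therefore measure the spread between splits and are not counted as a repeat of the 10-cell comparison. In nude liver pools against spheroid pools, 7 of 29 genes tested were called lower and 1 higher. Over all 8010 genes tested, 9.13% were called lower and 16.5% higher. Markers of other cells differed too: 8 of 8 hepatocyte and 3 of 3 erythrocyte genes tested were called higher in nude pools, and 2 of 7 neuroendocrine genes lower. Scd2 ranged from 589 to 1762 CPM in spheroid pools (median 1069.9) and from 6.29 to 970 in nude pools (median 65.9), 34 of 35 nude libraries lying below the lowest spheroid pool, with a log2 fold change of -2.90 (SE 0.33, adjusted p = 1.53e-10). Fdps ranged from 230 to 758 CPM (median 495) and from 0 to 850 (median 22.1), with 32 of 35 below the lowest spheroid pool, and a log2 fold change of -2.26 (SE 0.57, adjusted p = 0.00154). Scd2 and Fdps were the most cleanly separated of those called, with a few nude pool libraries inside the spheroid range. Hmgcs1 also fell, from a median of 39.3 to 0.382 CPM (log2 fold change -2.80, SE 0.76, adjusted p = 0.0037), as did Cyp51, from 64.7 to 9.72 CPM (-1.89, SE 0.61, adjusted p = 0.0149). Msmo1, the sterol C4 methyl oxidase, fell from 47.3 to 1.49 CPM (-2.59, SE 0.63, adjusted p = 0.00112). Insig1, which retains SREBP, fell from 3.46 to 1.03 CPM (-1.49, SE 0.53, adjusted p = 0.0298), a call lost in 4 of its 8 alternatives. Nsdhl had counts in 17 of 20 spheroid pool libraries and 2 of 35 nude pool libraries, with means of 37.9 and 0.305 CPM. Its fitted log2 fold change of -6.61 rests on so few counts that its size depends on the model's prior. Fasn was higher, ranging from 209 to 608 CPM (median 364) and from 154 to 1530 (median 650), with 20 of 35 nude pool libraries above every spheroid pool and a log2 fold change of 1.06 (SE 0.22, adjusted p = 9.23e-05). Against the 6 spheroid pool libraries with at least 0.1% spike-in counts 3 genes were called, all lower, where 776 of all 9498 genes were. Fasn was lost there (log2 fold change 0.44, adjusted p = 0.538), as were Hmgcs1 (-1.88, 0.416), Cyp51 (-1.24, 0.538) and Msmo1 (-2.08, 0.209). Insig1 did not pass the filter. Against the 14 with less, 6 were called (1 higher, 5 lower), where 1855 of all 8482 genes were; Insig1 was lost and Nsdhl did not pass the filter. With the hepatocyte score in the model, 7 genes were called lower and 0 higher, where calls over all genes went from 2054 to 1025. In the pools too the score followed the group, so the model can hardly tell score and group apart. Sqle, Elovl5, Elovl6 and Fads2 gained a call. The calls of Fdps (log2 fold change -3.74, from -2.26), Cyp51 (-2.17, from -1.89), Msmo1 (-2.17, from -2.59), Insig1 (-2.77, from -1.49) and Fasn (1.33, from 1.06) were lost, with adjusted p-values from 0.232 to 0.588.

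In F1 liver pools against the same spheroid pools, 2 of 27 genes tested were called lower and 0 higher, with 5 at an unadjusted p under 0.05. Over all 7249 genes tested, 2.65% were called lower and 8.94% higher. Of the marker genes, 3 of 3 erythrocyte genes tested were called higher in F1 pools, 3 of 7 neuroendocrine genes lower and 1 higher, and 0 hepatocyte genes passed the filter. The part of the erythrocyte and neuroendocrine genes was not tested. DESeq2 called 7 lower and 0 higher, and limma-voom 22 lower and 0 higher, where in either direction they called 1470 and 3355 of all 7249 genes. Scd2 ranged from 0.376 to 880 CPM in F1 pools (median 67.8), with 23 of 24 below the lowest spheroid pool, and a log2 fold change of -2.27 (SE 0.50, adjusted p = 0.0011). Nsdhl had counts in 2 of 24 F1 pool libraries, with a mean of 0.0304 CPM. Fdps, at a median of 45.2 CPM, was not called (log2 fold change -1.61, adjusted p = 0.11), although 21 of 24 libraries were below the lowest spheroid pool. Against the 6 spheroid pool libraries with at least 0.1% spike-in counts, the Scd2 call was lost (log2 fold change -2.64, adjusted p = 0.179). Without the 17 F1 pool libraries over 10% spike-in counts, 10 of 32 genes tested were called (1 higher, 9 lower), where 1418 of all 9368 genes were, against 840 of 7249 with them. Between F1 and nude pools, 0 of 18 genes tested were called in either direction (edgeR and DESeq2; limma-voom called 3 lower), and 1 had an unadjusted p under 0.05. This count of 0 does not show that the pools were alike. Over all 6010 genes tested, 8.20% were called higher and 3.79% lower. Fasn, for which the 10-cell groups differed, had a log2 fold change of -0.56 between the pools (adjusted p = 0.28), and Scd2 0.65.

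**Figure D3:**
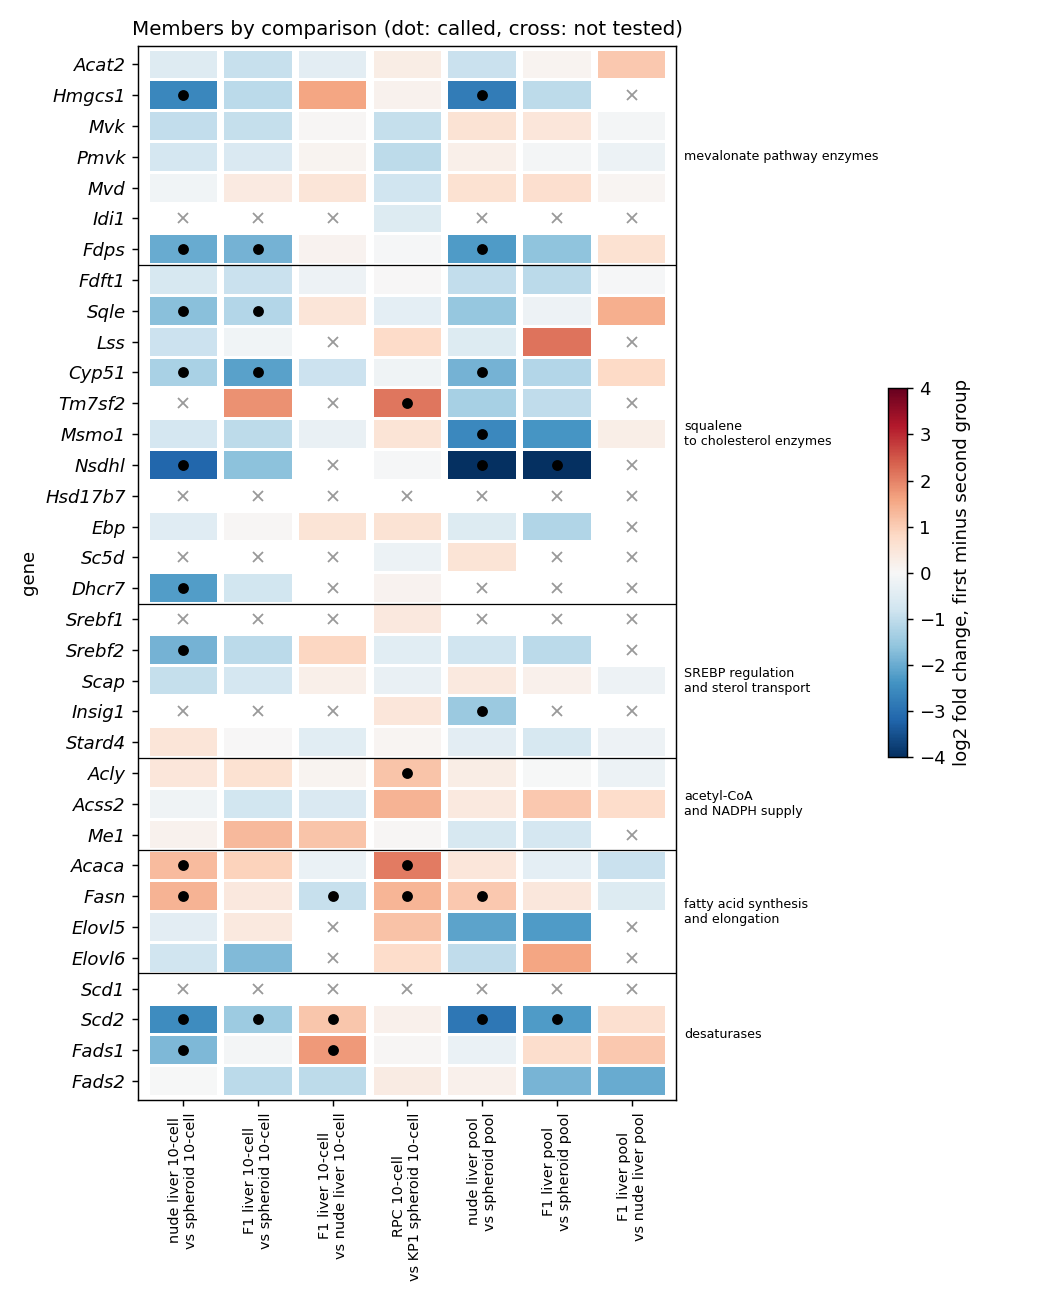
Fitted log2 fold change of each gene (rows, grouped by role) in each comparison (columns), first group minus second, in colours that stop at 4 in each direction; dots mark calls and crosses genes not tested. Scd2 is called lower in all 4 comparisons of liver with spheroid, and Fasn is called higher in nude liver and in RPC but lower in F1 than in nude colonies.

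The study's design uses pool-and-split controls to separate differences between captures from noise of the method. Spread, taken as how far log2(CPM + 1) in a library lay from its group's median in either direction, was compared between 10-cell and pool libraries. For 30 genes tested in spheroids, 26 in nude colonies and 29 in F1 colonies, 0 were called in each of these (limma), and 2, 6 and 9 had an unadjusted p under 0.05; a count of 0 here does not show that the spreads were alike. Over all genes tested, 0.00%, 0.777% and 1.48% were called. In spheroids 19 of the 30 genes had more spread in 10-cell libraries than in pools, against 58.8% of all genes. Fasn had the largest positive difference relative to its error there: a mean deviation of 0.71 in 10-cell libraries and 0.32 in pools (difference 0.39, SE 0.19, adjusted p = 0.841). In the liver the pools were the more spread for most of these genes: 9 of 26 in nude and 10 of 29 in F1 had more spread in 10-cell libraries, against 42.7% and 38.8% of all genes. Sqle in F1 colonies had a mean deviation of 1.35 in 10-cell libraries and 2.81 in pools (difference -1.46, SE 0.46, adjusted p = 0.0824). With the logarithm of the squared deviation in place of the absolute one, 1 gene was called in nude (Elovl5, higher) and 5 in F1 colonies: Dhcr7 higher and Sqle, Fasn, Insig1 and Fdps lower. By that measure 1029 of all 9397 genes in nude and 1454 of all 8759 in F1 colonies were called, so the share of these genes is below that of genes at large in nude and near it in F1. With only genes of at least 50 CPM, Sqle and Fads1 were called in F1, both lower, of 10 genes tested, where 227 of all 2784 genes were.

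The bulk libraries show how far spheroids of other lines differ from KP1 at these genes, without replicates. At least 2-fold differences were counted for genes with at least 5 CPM in either line. KP2 had 14 of 34 genes higher and 0 lower, where 8.53% of all genes were higher and 12.8% lower. KP5 had 21 of 33 higher and 0 lower, where 11.4% of all were higher and 14.7% lower. KP3 had 0 of 33 higher and 1 lower, where 3.94% and 5.52% of all were.

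The highest ratios of KP5 to KP1 were at Mvd (12.6), Idi1 (9.26) and Hmgcs1 (7.46), all in the mevalonate pathway. Mvd, the decarboxylase that makes isopentenyl diphosphate, was at 10.0 CPM in KP1, 56.5 in KP2, 12.2 in KP3 and 126 in KP5. Idi1, the isomerase that follows, was at 30.1, 134, 42.0 and 279 CPM in the same order. Hmgcs1 was at 59.6, 314, 40.0 and 444 CPM, a ratio of KP2 to KP1 of 5.28. Fdps was at 44.4, 184, 46.6 and 277 CPM. In each of these genes KP1 and KP3 were low and KP2 and KP5 high. Msmo1 (26.5, 95.2, 25.1 and 187 CPM), Nsdhl (9.09, 40.9, 9.99 and 55.4 CPM) and Insig1 (63.8, 144, 70.9 and 207 CPM) also had KP2 and KP5 above KP1 and KP3. The SREBP genes lay within 2-fold of KP1 in each line: Srebf2 was at 229, 334, 200 and 329 CPM and Srebf1 at 215, 153, 123 and 151. Fasn was at 399, 496, 472 and 1140.1 CPM, and Acaca at 238, 164, 195 and 239. Scd2 was at 511, 812, 211 and 1187 CPM. Scd1 was at 0.352, 15.7, 3.35 and 0.333 CPM, under 1 CPM in KP1 and KP5 and highest in KP2.

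**Figure D4:**
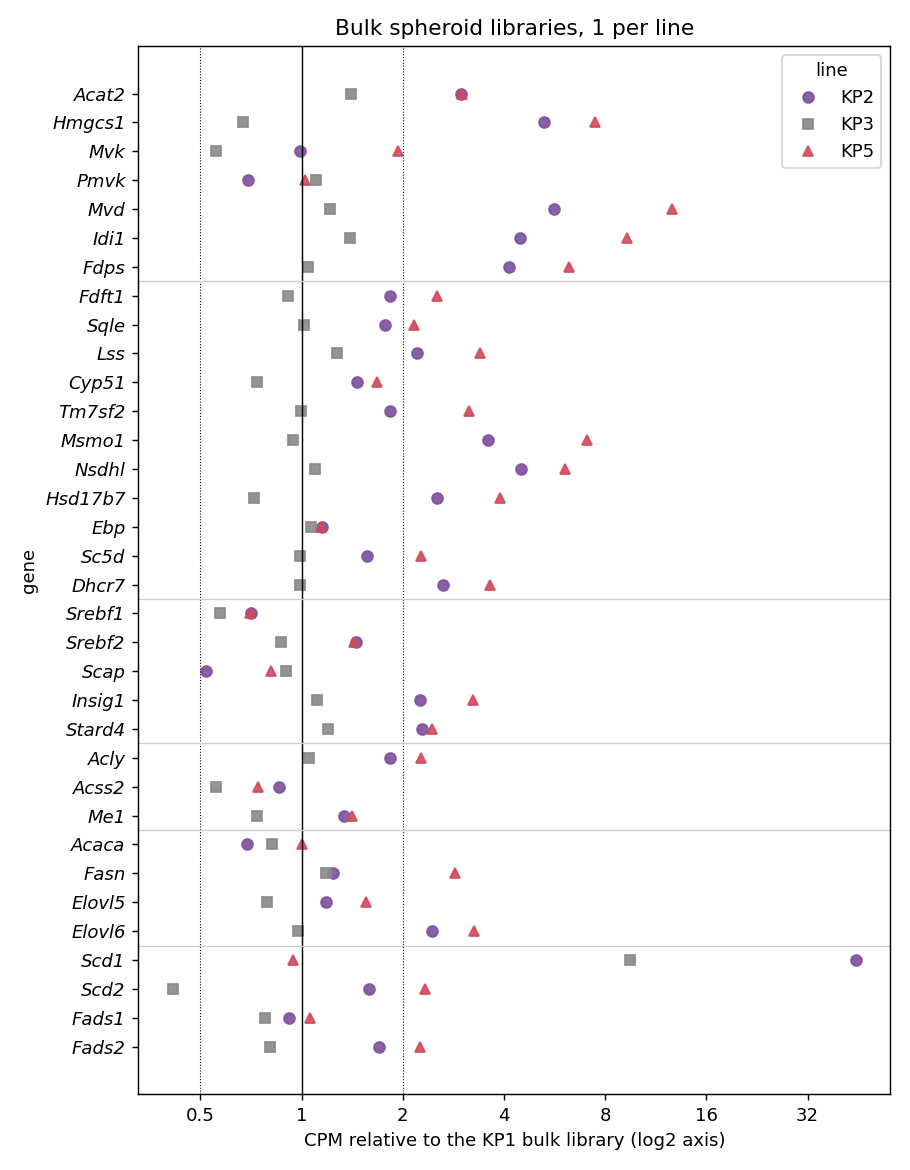
CPM in the single bulk library of KP2, KP3 and KP5 divided by that of KP1, on a log2 axis; dotted lines mark 2-fold. KP5 lies at or beyond 2-fold for 21 genes, and KP3 lies within 2-fold of KP1 except at Scd1 and Scd2.

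A further 47 genes of SREBP processing, LXR receptors and targets, sterol transport, isoprenoid branches, acyl-CoA and glycerolipid metabolism and fatty acid oxidation were set beside the 34. In nude colonies 4 of 30 tested were higher than in spheroids and 5 lower, where 17.7% and 16.3% of all genes were. In F1 colonies 3 of 31 were higher and 3 lower, where 7.73% and 4.91% of all genes were. These shares are within a few genes of the background. Not every called gene is named below. Sterol transport and storage, with no gene named, had 2 of 4 tested higher in nude colonies and 1 of 3 in F1 colonies. Mbtps2, a protease that releases SREBP, was higher in both: means of 49.9 CPM in nude, 18.9 in F1 and 9.06 in spheroids, with log2 fold changes of 2.58 (SE 0.44, adjusted p = 2.66e-06) and 1.51 (SE 0.44, adjusted p = 0.0144). Mbtps2 overlaps Yy2 and Gm6568, whose reads cannot be told apart from its own. Insig2, which retains SREBP, was lower: means of 5.08 CPM in nude, 3.00 in F1 and 20.3 in spheroids (log2 fold changes -2.15, SE 0.71, and -2.79, SE 0.75, adjusted p = 0.0135 and 0.00787). Acsl3, which activates fatty acids by joining them to coenzyme A, was lower, at means of 10.4, 3.20 and 39.2 CPM (log2 fold changes -2.09, SE 0.63, and -3.22, SE 0.67, adjusted p = 0.00693 and 0.000421); it overlaps Utp14b. Acsl1 was lower in nude colonies (log2 fold change -1.97, adjusted p = 0.00114), and Acsl4 in F1 colonies (-3.42, SE 0.70, adjusted p = 0.000359). Lbr, the lamin B receptor that is also a sterol reductase, was higher: means of 325, 346 and 157 CPM (log2 fold changes 0.96, SE 0.36, and 1.57, SE 0.30, adjusted p = 0.0306 and 9.66e-05); it overlaps Dnah14.

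In RPC, 5 of 35 tested genes of the further list were higher than in KP1 and 7 lower, where 10.3% and 11.6% of all genes were. Thrsp, a regulator of lipogenesis known as Spot 14, was lower, at a mean of 3.87 CPM in RPC against 143 for the KP1 spheroids, opposite to Fasn. The fitted log2 fold change of Thrsp was -5.65 (SE 0.66, adjusted p = 2.67e-10). Elovl7, a fatty acid elongase, was also lower (4.02 and 39.9 CPM, -3.71, adjusted p = 5.95e-05). Acsl3 was higher (235 and 39.2 CPM, log2 fold change 2.55, adjusted p = 4.79e-06), as was Mbtps2 (48.2 and 9.06 CPM, 2.40, adjusted p = 1.95e-05).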

How the data were processed

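The deposited table holds expected counts (estimated read counts per gene) for 199 libraries, which the authors made from the reads; the submitters' processing notes name RSEM and Bowtie2, GRCm38 and GRCh38.p12, without versions or roles. Of the values, 10.7% were not whole (tolerance 1e-06). Rounded counts entered the models, and 92 spike-in rows were left out of totals, CPM and tests. No pair of libraries agreed within sampling noise (lowest chi-squared per degree of freedom 29.1). Mean levels were compared with edgeR 4.0.16 under R 4.3.3, with its quasi-likelihood test after filterByExpr and TMM normalisation, spread with limma 3.58.1 on log2(CPM + 1) for genes of at least 5 CPM on average, fitted across all genes with Benjamini-Hochberg adjustment and called at 0.05. Only the groups compared entered each fit. Fits were tested on simulated data. DESeq2 1.42.0 and limma-voom were among the alternatives. The hepatocyte score was built from 14 genes. The genes and lists were chosen with earlier results of these data known. Text may name any of the 34 genes and the markers Alb and Hbb-bs. Of 47 further pathway genes it may name called ones with the smallest adjusted p, at most 4 per direction and comparison. Some called genes that this rule allows are left unnamed. Outside this rule stand the deleted genes, Adipoq and overlapping genes, named as checks, and Rpl19-ps11 and Idi2, picked with their values known. Coordinates are those of the table; 29 of the 34 genes have the same ones in GENCODE M21, and 8 overlap another gene.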

Additional observations from a re-analysis of the deposited data

Results flagged for a closer look

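F1 and nude colonies differed at 3 genes, by the edgeR test of the liver groups against each other, which share the spheroid control. These were 2 higher and 1 lower of 22 tested, where 11.2% and 7.98% of all genes were, so the genes were called no more often than genes at large. The log2 fold change, F1 minus nude, was -0.93 for Fasn (adjusted p = 0.00358), 1.11 for Scd2 (adjusted p = 0.00451) and 1.73 for Fads1 (adjusted p = 0.0188). Over the 13 alternatives, Fasn was called in each (adjusted p up to 0.038), Scd2 in 9 and Fads1 in 11. With only the F1 libraries under 200 CPM of Rpl19-ps11, Scd2 was at 0.01 (adjusted p = 0.99). Between the liver pools edgeR called 0 of 18 genes tested. The part of erythrocyte RNA in these differences was not tested.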

How the results depend on the processing

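Many of the 34 genes are at 0 in part of the libraries, and low genes went untested. Scd2 was called lower than in spheroids in each alternative run for the nude 10-cell, F1 10-cell and nude pool libraries, and in 14 of 15 for the F1 pools. For the 34 genes, over the comparisons and alternatives in which they were tested, 2121 values kept direction and side of the threshold, 123 gained a call, 50 lost one and 19 reversed. The causes of the changes below were not tested.

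With limma-voom, 17 of the genes were called in nude colonies (11 with edgeR), 15 in F1 colonies (4), 8 in RPC (4), 22 in nude pools (8), 22 in F1 pools (2) and 3 between the liver pools (0). Over all genes limma-voom called 3870 (2669 with edgeR), 1747 (924), 3096 (1881), 4791 (2054), 3355 (840) and 836 (721) in the same order, so calls rose generally. The all-gene median log2 fold change was then -0.44 in F1 colonies (0.22 with edgeR), -1.09 in nude pools (0.16) and -1.45 in F1 pools (0.46). DESeq2 called 14 in nude pools and 7 in F1 pools (2873 and 1470 of all genes). Counts over all genes stand in brackets from here. With no filter 5 were called in F1 pools (5224) and 3 between liver pools (5857), and at a mean of at least 10 CPM 1 between liver pools (1209). With the hepatocyte score 2 were called in nude colonies (1071) and 6 in F1 pools (1432). Without liver libraries over 10% spike-in, 10 were called in F1 pools (1418). Against spheroids with at least 0.1% spike-in, 6 were called in nude colonies (1847), 2 in F1 colonies (174), 3 in nude pools (776) and 1 in F1 pools (22); with less, 1 in F1 pools (637). With F1 libraries of at least 200 CPM of Rpl19-ps11, 4 were called in F1 pools (1066); with those under it 6 in F1 pools (1734), 1 between liver colonies (302) and 1 between liver pools (372). For spread, the log squared deviation called 1 gene in nude (1029) and 5 in F1 colonies (1454), and a mean of at least 50 CPM called 2 in F1 (227).

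The same replicate numbers recur across groups. At most 1 pair in any comparison correlated above 0.1, and at most 2 libraries correlated best with their own number. Such low correlations between captures cannot show whether same-numbered libraries share an animal or preparation, and the labels do not say. With the replicate number as a block, 12 genes were called in nude colonies, 10 in F1 colonies, 2 between them, 6 in RPC, 13 in nude pools, 12 in F1 pools and 0 between liver pools. Over all genes it called 2737, 902, 887, 2019, 2927, 1837 and 179. In F1 pools the block called Lss (-3.31), Acss2 (-3.76) and Elovl6 (-4.71) lower, genes not called and of the other sign without it.

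The other changes of sign were also of genes not called with edgeR. In RPC, Sc5d was at 1.59 with DESeq2 and 2.23 with limma-voom. In nude pools, limma-voom gave Pmvk -2.43, Sc5d -2.22 and Scap -1.67, and the hepatocyte score Fads2 -8.25. In F1 pools, Lss was at -2.38 with DESeq2 and -2.42 with limma-voom, which also gave Mvd -2.30, Fads1 -3.66, Acat2 -1.94, Acss2 -2.23, Scap -2.63 and Elovl6 -3.00; Elovl6 was at -3.82 without libraries over 10% spike-in, and Scap at -2.77 with F1 libraries under 200 CPM of Rpl19-ps11.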

Other observations

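Idi2, a second isopentenyl diphosphate isomerase that was not among the 34 genes and was picked out after its values were seen, had counts in 22 of 24 RPC libraries (median 8.28 CPM, highest 163, SD 50.8 about a mean of 36.8) and in 0 of 28 KP1 spheroid 10-cell libraries. It had counts in 5 of 33 nude and 3 of 31 F1 liver 10-cell libraries, with a highest level of 4.02 CPM. The member of the pair that was followed, Idi1, had counts in 21 of 24 RPC and 15 of 28 KP1 libraries, with medians of 3.56 and 0.239 CPM. Idi1 and Idi2 are related genes, and estimated counts could be split between them.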
